A study of Mus musculus with 12 samples.

Results

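The region described here is the start of mouse chromosome 9 in build mm10, positions 1 to 10000000. Its members are all CpGs listed there, with the calls of both strands summed, and it was chosen by the number of methylation calls, which in libraries of PBS mice was lower there than in libraries of treated mice. It holds 23676 of the 13202122 CpGs listed on the autosomes and X, and 1443 of these had at least 10 calls in each of 12 libraries (common CpGs), of 1052856 in all. The first listed CpG lies at position 3000031, because the assembly of this chromosome begins after a gap. The data did not bear out a deficit over the whole stretch. In the PBS libraries it lay in the first 40 kb of assembled sequence, called the first block below, which holds 707 listed CpGs from position 3000031 to 3039792, 112 of them common. The other 22969 listed and 1331 common CpGs showed none.

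DNA was profiled by reduced representation bisulfite sequencing, which sequences CpG-rich restriction fragments after bisulfite has converted unmethylated cytosines, so that each read over a CpG calls it methylated or not. The cells were CMM cells, a GFP-marked mouse model of acute myeloid leukaemia with the inversion inv(16), grown in C57BL/6 mice after injection into a vein. Mice with about 1% GFP-positive cells in blood received CpG-STAT3dODN, a CpG oligonucleotide coupled to a STAT3 decoy, or PBS, in 3 intravenous injections on alternate days, and spleens were taken 1 day after the last. GFP-positive cells of treated mice were sorted by the myeloid surface protein CD11b into a CD11b-positive and a CD11b-negative group, and PBS mice gave all GFP-positive cells without sorting by CD11b, with 4 libraries in each of the 3 groups. Treatment and selection by CD11b therefore cannot be told apart in a comparison with PBS. The labels give neither the age nor the sex of the mice, nor whether each library had its own mouse, and p-values therefore describe only the spread among these libraries, which may be technical. The question of the study was whether DNA methyltransferases differ in the CD11b-positive subset from the CD11b-negative cells or from untreated cells.

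Methylated CpGs lie mostly between genes, in gene bodies and in repeats, whereas CpG-dense gene starts are usually free of methylation. Mouse centromeres sit at one end of the chromosome, and the first assembled bases adjoin pericentromeric DNA made largely of major satellite, a tandem repeat with a unit of 234 bp that is normally methylated. Farther in, this part of chromosome 9 carries a cluster of matrix metalloproteinase genes, whose products cut extracellular matrix, the inflammatory caspase genes Casp1, Casp4 and Casp12, the apoptosis inhibitor genes Birc2 and Birc3, and Yap1, the transcriptional coactivator of the Hippo pathway.

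The libraries held 112671408 to 157223205 calls, and the median common CpG of the stretch had 88 calls per library, against 84 over all common CpGs. The library numbered 2 in each treated group stood apart. CD11b-positive 2 listed 6823989 CpGs and CD11b-negative 2 listed 6500217, whereas the other 10 libraries listed 2826185 to 5712096. Calls on 8 genes of the Y chromosome also differed between libraries: per 1000000 autosomal calls they came to 25.04, 41.3, 23.8 and 23.8 in CD11b-positive, 12.9, 40.2, 11.1 and 8.64 in CD11b-negative, and 5.52, 18.6, 8.25 and 11.0 in PBS. The main results are therefore also given without the number 2 libraries of the 3 groups.

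The sequences behind the gene results are the 300 bases from 250 before to 50 after the annotated start, from RefSeq (GRCm38.p6, the same assembly as mm10). Arhgap42 is shown because its start lost methylation, Yap1 because its CpG-rich start was almost unmethylated in each group, and Mmp1b because its start holds no CpG, as at Mmp1a and Mmp20. They read 5′ to 3′ on the gene's strand, and capitals mark the CpGs with at least 10 calls in all 12 libraries.
Arhgap42 (chr9:9238978-9239277, minus strand): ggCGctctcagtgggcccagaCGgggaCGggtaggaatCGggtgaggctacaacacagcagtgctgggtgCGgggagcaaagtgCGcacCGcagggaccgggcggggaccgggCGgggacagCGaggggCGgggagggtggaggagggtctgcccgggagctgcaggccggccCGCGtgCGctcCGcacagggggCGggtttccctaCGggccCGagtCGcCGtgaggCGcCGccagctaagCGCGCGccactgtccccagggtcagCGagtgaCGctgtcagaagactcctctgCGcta
Yap1 (chr9:8004547-8004846, minus strand): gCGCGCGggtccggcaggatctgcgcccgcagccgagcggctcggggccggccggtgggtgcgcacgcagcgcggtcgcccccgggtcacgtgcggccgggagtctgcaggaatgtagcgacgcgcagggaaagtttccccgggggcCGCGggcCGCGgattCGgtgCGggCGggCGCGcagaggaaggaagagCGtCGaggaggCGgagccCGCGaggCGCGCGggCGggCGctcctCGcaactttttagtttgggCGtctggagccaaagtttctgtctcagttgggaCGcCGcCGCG
Mmp1b (chr9:7387977-7388276, minus strand): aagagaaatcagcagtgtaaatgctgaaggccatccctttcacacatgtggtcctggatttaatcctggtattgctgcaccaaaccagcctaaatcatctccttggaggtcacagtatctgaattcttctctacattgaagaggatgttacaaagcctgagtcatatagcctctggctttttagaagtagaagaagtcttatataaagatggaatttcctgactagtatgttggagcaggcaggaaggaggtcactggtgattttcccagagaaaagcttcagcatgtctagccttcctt
The Arhgap42 sequence holds 32 CpGs, of which 27 were measured, and the Yap1 sequence 49, of which 28 were measured. Each of the 503 listed positions inside the RefSeq start sequences of this region read CG there. The motif CCGG, searched as these letters (a palindrome, so both strands are covered), occurred in 21 of the 55 start sequences of the region (38.2%), against 53.1% of the 32585 start sequences of that table on the autosomes and X, and the median sequence held 5 CpGs, against 7. The only annotated gene in the first block is Mir101c (mature sequence at chr9:3038680-3038698, minus strand), whose mature miRNA is shown for its position, with the seed (bases 2 to 8) in capitals.
mmu-miR-101c: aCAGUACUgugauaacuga

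The number of calls chose the stretch, so the values that follow describe it and were not tested. As a share of autosomal calls, the PBS libraries held 0.326 times the mean of the 8 treated libraries in the bin from 3 to 4 Mb. In the other 6 bins of the stretch that ratio lay between 0.978 and 1.04, and in the 15 bins from 10 to 25 Mb between 0.957 and 1.08. The last bin inside the 10 Mb limit had a ratio of 1.01 and the first one outside it 1.02, so nothing in the calls changed at that limit. In no bin was every PBS library below every treated library. Bins of 5 kb placed the edge. The first 8 bins had ratios of 0.102 to 0.289, the last of them still held 10019 calls over all libraries, and the next one held 11. The next bins with many calls, 3085001 to 3090000 and 3090001 to 3095000, had ratios of 1.06 and 0.961.

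**Figure D1:**
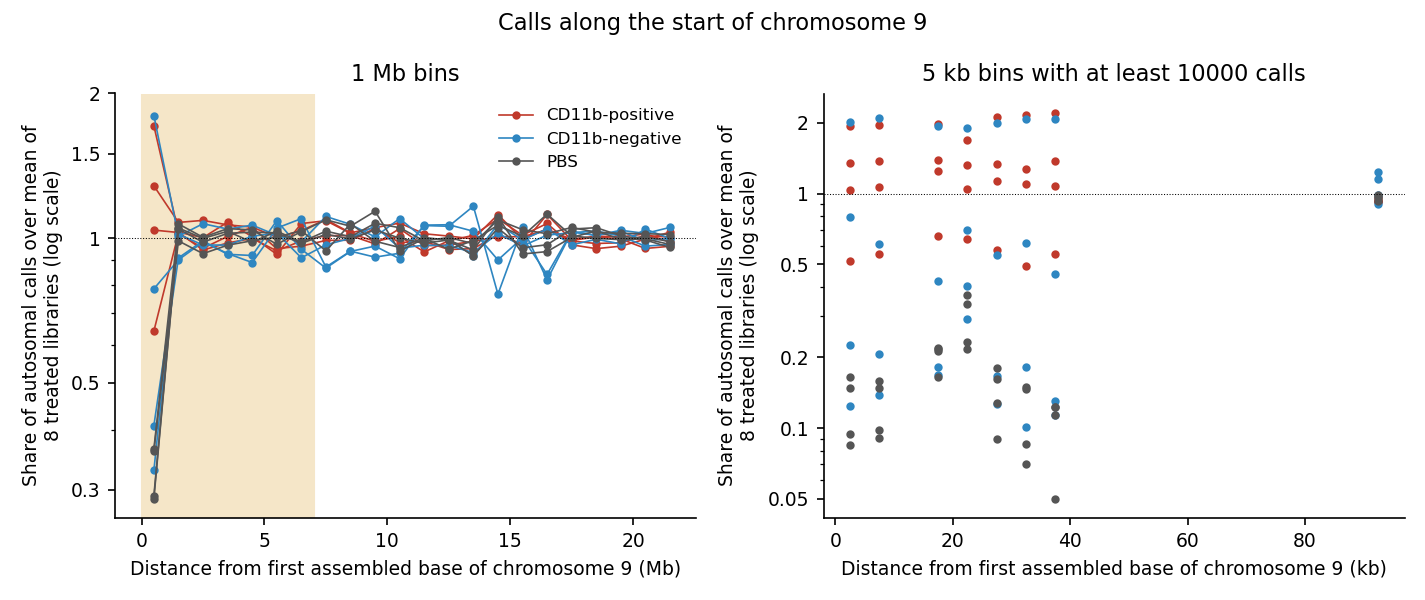
Share of autosomal calls in each bin, divided by the mean of the 8 treated libraries (log scale), against distance from the first assembled base of chromosome 9, with 1 Mb bins on the left (the described stretch shaded) and 5 kb bins on the right. Each point is a library. The PBS libraries lie low in the first 1 Mb bin, at 0.326 times the treated mean, and near 1 in the others.

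Single libraries did not separate by treatment in the first block. Calls there per 1000000 autosomal calls were 2081, 1498, 1166 and 623 in CD11b-positive, 826, 2208, 200.4 and 312 in CD11b-negative, and 258, 153, 236 and 150.1 in PBS. CD11b-negative 3 lay inside the PBS range, and the treated libraries spread far more widely than the PBS libraries. The means were 1114 ± 764 in the 8 treated libraries and 199 ± 55.9 in the 4 PBS libraries (SD). The contrast of CD11b-positive with CD11b-negative did not enter the choice of the region. It gave means of 1342 ± 611 and 886 ± 922 (SD, n = 4 each), which overlapped (two-sided exact permutation p = 0.429 over 70 assignments). Without the number 2 libraries the means were 1290 ± 737 in CD11b-positive and 446 ± 334 in CD11b-negative (SD, n = 3 each, exact permutation p = 0.2, against a smallest possible 0.100). Without the first block, calls per 1000000 autosomal calls were 1276 ± 29.5 in CD11b-positive, 1247 ± 26.5 in CD11b-negative and 1275 ± 26.5 in PBS (SD, n = 4 each). Set against the calls from 10 to 25 Mb, the whole stretch had 0.612 times the treated mean in PBS, and 0.999 times without the first block. The block held 33.0% to 62.0% of the stretch's calls in CD11b-positive, 13.8% to 63.3% in CD11b-negative and 10.5% to 17.2% in PBS.

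**Figure D2:**
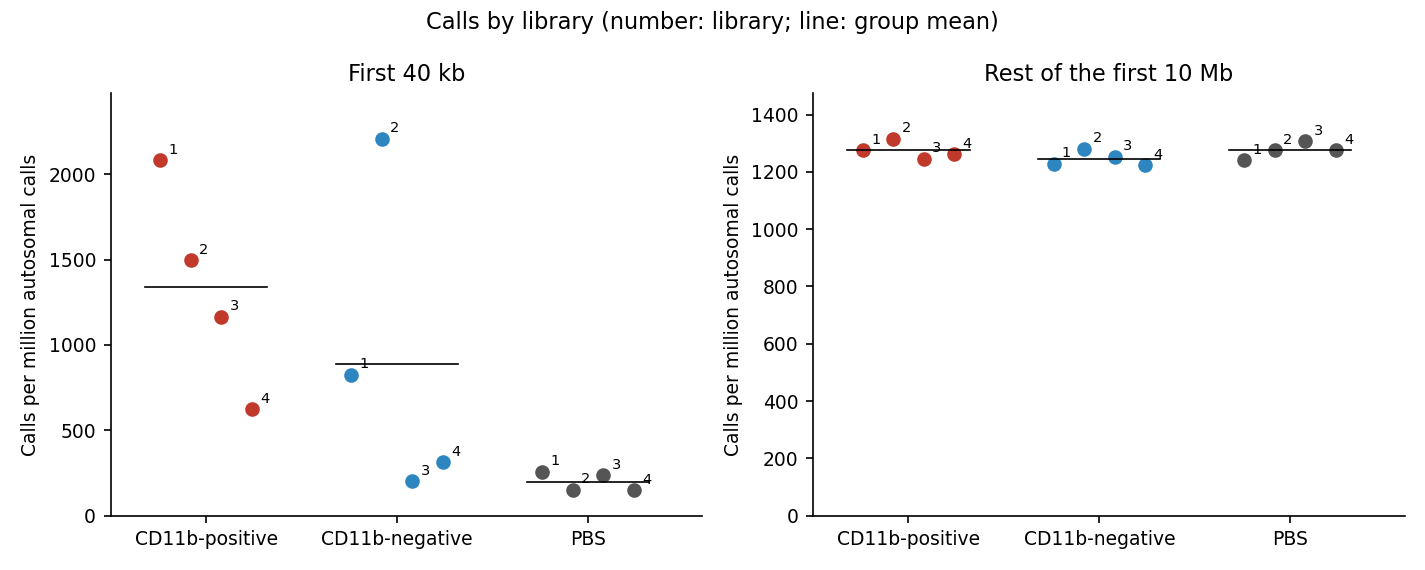
Calls per 1000000 autosomal calls by library in the first 40 kb of assembled sequence (left) and in the rest of the first 10 Mb (right); points are libraries with their numbers and lines are group means. The left panel runs from 150.1 to 2208 with CD11b-negative 3 among the PBS libraries, and the right panel is nearly flat.

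The CpGs of the first block were dense and recurred at a fixed distance. The 4 neighbouring CpGs at 3001453, 3001465, 3001493 and 3001511 held 42.2% of its calls over all libraries, at pooled methylation of 89.3% to 90.8%. Its listed CpGs were 17.7 per kb, against 3.30 per kb in the rest of the stretch. Between pairs of its CpGs the commonest distance from 100 to 500 bp was 234 bp, with 276 pairs, followed by 468 bp with 179, whereas the median distance had 4 pairs. In the rest of the stretch 234 bp had 228 pairs, against a median of 210. Which repeat the block holds was not read, since the sequence of the block was not used here. 

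Few other places followed the same pattern over the libraries. Among 18566 bins of 50 kb with at least 20000 calls, 4 had log2 shares with a Pearson correlation of at least 0.95 to those of the block over the 12 libraries, a limit chosen after seeing the values. They were chr9:35300001-35350000 (0.999), chr14:19400001-19450000 (0.994), chr12:3100001-3150000 (0.978) and chr2:98650001-98700000 (0.960). All 4 were highly methylated, at 81.5% to 87.3% of pooled calls, and PBS held 0.147 to 0.424 times the treated mean there. The points share depth and library preparation, so these are descriptions. On chromosome 2, PBS held 0.585 times the treated calls from 90 to 100 Mb, and 1.00 times once that 50 kb bin was left out.

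The methylated share of calls did not enter the choice of the region, although it comes from the same reads and the same groups. Mean methylation of the 1443 common CpGs was higher in both treated groups. The libraries had 59.1%, 59.9%, 59.1% and 59.3% in CD11b-positive, 58.1%, 59.4%, 57.7% and 58.0% in CD11b-negative, and 56.6%, 55.8%, 56.3% and 55.9% in PBS. Every treated library lay above every PBS library. CD11b-positive exceeded PBS by 3.20 points (59.4% ± 0.400 and 56.2% ± 0.347, SD, n = 4 each) and CD11b-negative exceeded PBS by 2.14 points (58.3% ± 0.737 and 56.2% ± 0.347). By a two-sided exact permutation test each had p = 0.0286, which no split of 4 against 4 can go below (adjusted p = 0.0429 over 3 comparisons). CD11b-positive and CD11b-negative differed by 1.07 points with overlap (exact permutation adjusted p = 0.114). Without the number 2 library of each group the 2 differences from PBS were 2.91 and 1.67 points, where 3 libraries against 3 cannot reach an exact permutation p under 0.100. Over all 1052856 common CpGs the means were 34.7% ± 0.810 in CD11b-positive, 33.1% ± 1.59 in CD11b-negative and 31.4% ± 0.292 in PBS (SD, n = 4 each). There too, every treated library lay above every PBS library, so the higher level was not particular to the stretch. In such bulk DNA, a change in the mix of cells and a change within cells cannot be told apart.

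The first block itself was highly methylated in each group, at 84.9% ± 0.366 in CD11b-positive, 85.2% ± 1.25 in CD11b-negative and 83.2% ± 1.15 in PBS (SD, n = 4 each). CD11b-positive and PBS libraries did not overlap there (exact permutation p = 0.0286, the smallest possible). No comparison passed after adjustment over 3 comparisons (exact permutation adjusted p = 0.0857, 0.0857 and 0.771). With only 1 comparison at the smallest p, that comparison adjusts to 0.0857 and could not pass. Outside it, where calls were level, the common CpGs had 57.2% ± 0.438, 56.0% ± 0.816 and 53.9% ± 0.3002 in the same order of groups, and both differences from PBS passed (3.33 and 2.15 points, exact permutation adjusted p = 0.0429 each).

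No test found a difference particular to the stretch. The neighbouring 15 Mb was less methylated in all libraries, at 36.7% ± 1.47 in CD11b-positive, 34.4% ± 2.67 in CD11b-negative and 32.2% ± 0.502 in PBS (SD, n = 4 each). The gap between the stretch and this neighbour was 1.32 points narrower in CD11b-positive than in PBS, and the test of that difference did not pass (exact permutation adjusted p = 0.257). In CD11b-negative against PBS it differed by -0.101 points (adjusted p = 0.971), and in CD11b-positive against CD11b-negative by -1.22 points (adjusted p = 0.514, both exact permutation tests). When each CpG was weighted by its calls, the gap was instead 9.12 points wider in CD11b-positive than in PBS, and 0.0844 wider once the first block was also left out.

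**Figure D3:**
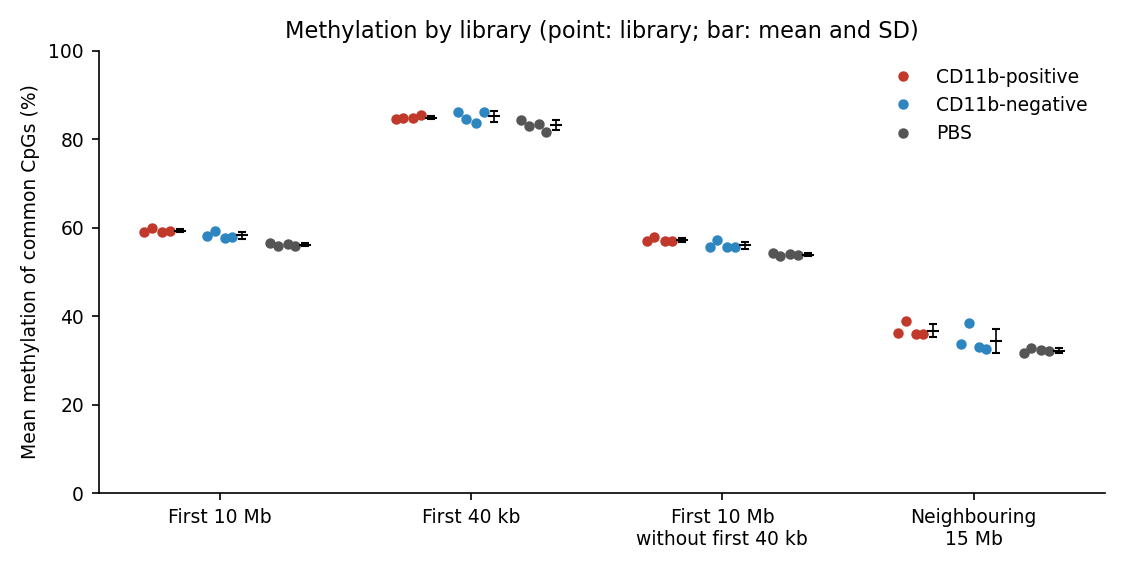
Mean methylation of common CpGs by library, in percent, in the first 10 Mb, the first 40 kb of assembled sequence, the first 10 Mb without it, and the neighbouring 15 Mb. Points are libraries and bars are means with SD; in the first 10 Mb each treated library, at 57.7% or more, lies above each PBS library, at 56.6% or less.

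By place, CD11b-positive levels were above PBS levels between and inside genes and below them at gene starts, without passing the test. The 663 common CpGs between genes, leaving out the first block, had 85.1% ± 1.86 in CD11b-positive, 81.7% ± 3.66 in CD11b-negative and 77.4% ± 0.384 in PBS (SD, n = 4 each). The 285 inside genes away from starts had 61.7% ± 1.24, 59.9% ± 1.65 and 56.5% ± 0.423 in these groups. The 383 within 1000 bp of a protein-coding start went the other way, with 5.61% ± 2.71 in CD11b-positive, 8.73% ± 4.73 in CD11b-negative and 11.1% ± 1.51 in PBS. That fall was not shared by most starts. Of the 16 measured start windows, 11 differed between CD11b-positive and PBS by at most 0.856 points. The other 5 were lower in CD11b-positive, from -7.46 points at Pgr to -26.8 points at Arhgap42, which held 55 CpGs. In each of the 3 classes CD11b-positive and PBS libraries did not overlap, with the smallest possible exact permutation p of 0.0286. CD11b-negative and PBS libraries did not overlap either between genes and inside genes, with the same p. Near starts they overlapped (exact permutation p = 0.486). With adjustment over 12 comparisons no class passed 0.05 (exact permutation adjusted p = 0.0571). Without the number 2 libraries CD11b-positive differed from PBS by 6.91 points between genes, 4.48 points inside genes and -4.85 points near starts, and the near-start means were 6.88% ± 1.17 in CD11b-positive, 11.1% ± 0.799 in CD11b-negative and 11.7% ± 1.13 in PBS (SD, n = 3 each).

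A finer view came from tiles of 1000 bp with at least 3 common CpGs, tested genome-wide by a quasi-binomial model with an F test and called at a Benjamini-Hochberg adjusted p under 0.05 and a difference of at least 10 points. In CD11b-positive against PBS, 52 of the 147 tiles of the stretch were called (35.4%), 46 higher and 6 lower. Over all 87020 tiles 36.3% were called, 32.5% higher and 3.76% lower, so the share was near the background. At 20 points or more it was 7.48% in the stretch and 16.1% over all tiles. The median difference was 5.08 points in the stretch and 5.0003 over all tiles. The neighbouring 15 Mb had 141 of 492 tiles called (28.7%), and the first block 2 of 14. Each called tile had between 20% and 80% methylation in PBS, where 52 of 63 tiles were called, against 0 of 18 tiles below and 0 of 66 above that range. Over all tiles 72.7% were called inside that range, 8.28% below it and 2.66% above it. Of the 25 tiles within 1000 bp of an annotated start of any gene class, 1 was higher and 5 lower, and of the 121 tiles over 2000 bp from any start 45 were higher and 0 lower. On all chromosomes with listed starts, 9.57% of the tiles within 1000 bp were higher and 7.08% lower, and 39.9% of those over 2000 bp were higher and 2.59% lower. Of the 52 called tiles of the stretch, CD11b-positive 2 was the most extreme CD11b-positive library in the direction of the call in 47. CD11b-negative 2 was the most extreme CD11b-negative library in that direction in 49. Without the number 2 libraries 49 tiles were called, 43 higher and 6 lower, against 33.4% of all tiles. When the Y-gene calls entered a fit of all 12 libraries as a further term, 1 tile of the stretch and 0.601% of all tiles were called.

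**Figure D4:**
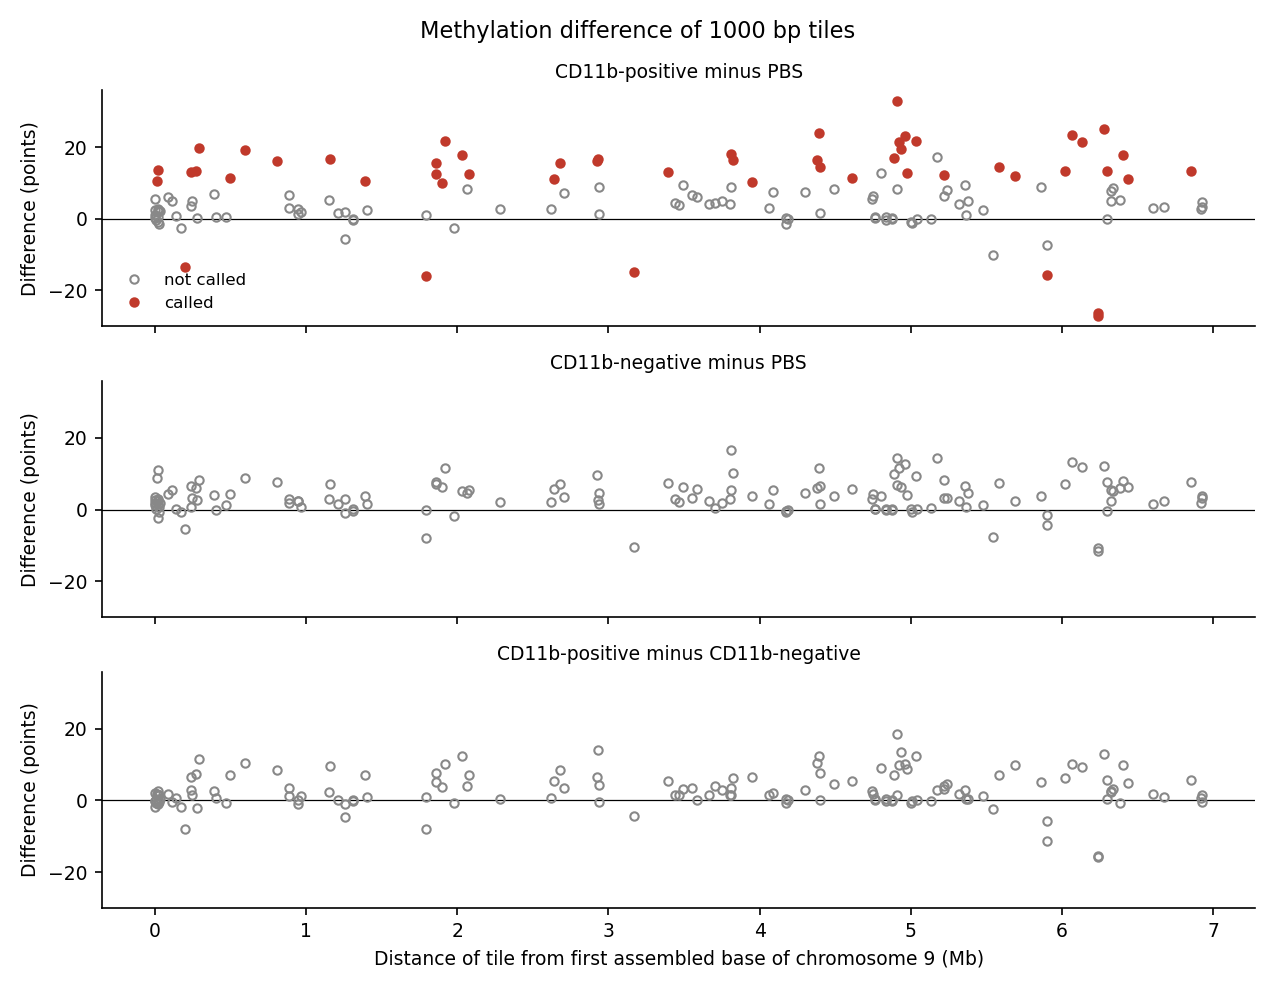
Difference in methylation (percentage points) of each 1000 bp tile against its distance from the first assembled base, for the 3 comparisons; filled red points were called and open grey points were not. In CD11b-positive minus PBS the 46 higher tiles are spread along the whole stretch and the 6 lower ones stand at few places; the other panels hold no call.

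The largest gain lay 21999 bp from Yap1, between Birc3 and Yap1, in a tile of 3 common CpGs, the smallest number allowed. Its tile, chr9:7909001-7910000, had 72.9%, 93.2%, 69.7% and 77.0% in CD11b-positive, 54.7%, 90.5%, 47.1% and 46.7% in CD11b-negative, and 38.0%, 48.1%, 45.2% and 50.2% in PBS. CD11b-positive libraries all lay above the PBS libraries, which the rule for naming tiles required. CD11b-negative 2 lay with CD11b-positive, away from the other 3 of its group. CD11b-positive exceeded PBS by 32.8 points (adjusted p = 0.00352, quasi-binomial model), and by 28.7 points without the number 2 libraries. A tile inside Yap1, chr9:7961001-7962000, had 70.1%, 83.2%, 68.5% and 67.2% in CD11b-positive, 62.2%, 80.2%, 56.6% and 48.7% in CD11b-negative, and 43.5%, 53.9%, 48.4% and 51.2% in PBS. It held 4 common CpGs and gained 23.0 points (adjusted p = 0.00262, quasi-binomial model), or 20.9 without the number 2 libraries. In all, 3 of the 5 tiles of Yap1 were higher.

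Gains of similar size stood near Arhgap42 and Mmp1b. The tile chr9:9278001-9279000, 38974 bp from Arhgap42, had 74.8% ± 5.61 in CD11b-positive, 61.9% ± 9.15 in CD11b-negative and 49.9% ± 3.37 in PBS (SD, n = 4 each). The tile chr9:9063001-9064000 inside Arhgap42 had 78.3% ± 7.25, 68.2% ± 4.94 and 55.0% ± 4.32 in these groups. Mmp1b encodes a relative of interstitial collagenase, and the tile chr9:7389001-7390000, 975 bp before its start, had 65.9% ± 7.23, 53.5% ± 15.1 and 41.9% ± 4.25. All 3 were called in CD11b-positive against PBS (24.9, 23.3 and 24.002 points, adjusted p = 0.00284, 0.00816 and 0.00378, quasi-binomial model), and without the number 2 libraries they gained 23.96, 18.97 and 22.3 points. Each of the 3 held only 3 common CpGs.

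The 6 lower tiles in CD11b-positive stood at the starts of Arhgap42, Gria4 and Pdgfd, at the start of the noncoding RNA gene 4930433N12Rik, and in Pgr. The Pgr tile lay 1168 bp from the start used here. Within 1000 bp of the start of Arhgap42, at position 9239027, methylation over 55 CpGs was 13.7%, 2.78%, 28.1% and 30.4% in CD11b-positive, 44.0%, 3.28%, 42.5% and 48.3% in CD11b-negative, and 52.9%, 38.9%, 46.8% and 43.4% in PBS. Every CD11b-positive library lay below every PBS library, and the CD11b-negative group split, with library 2 near zero and the other 3 inside the PBS range. The means of CD11b-positive and PBS were 18.7% ± 13.0 and 45.5% ± 5.89 (SD, n = 4 each), a difference of -26.8 points (adjusted p = 0.0324, quasi-binomial model). That p was 0.0862 by edgeR, 0.0575 with the replicate number as a block, 0.112 in a fit of all 12 libraries, and up to 0.0913 when single libraries were left out, and with the Y-gene term the difference was 3.49 points upwards. Without the number 2 libraries the means were 24.1% in CD11b-positive, 45.0% in CD11b-negative and 47.7% in PBS, with a difference of -23.6 points between CD11b-positive and PBS (adjusted p = 0.0126, quasi-binomial model). In the 300 bases printed above, the CD11b-positive mean was below the PBS mean at all 27 measured CpGs, and at 19 of them no library overlapped, as at 22.7% of all common CpGs in either direction. These CpGs lie inside the called window and were shown because of its loss, so their agreement adds no separate support. The means at single CpGs were 6.63% to 35.6% in CD11b-positive and 19.6% to 77.0% in PBS, with 13 to 96 calls per CpG and library. In the Yap1 sequence no library exceeded 18.2% at any of the 28 measured CpGs. Of the 5 tiles of Arhgap42, the 2 at its start fell and 3 farther inside rose. The noncoding RNA gene Gm16833 overlaps the start of Arhgap42, so the same CpGs lie in both.

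Pgr, the progesterone receptor gene, had 11.3%, 2.36%, 9.52% and 10.8% within 1000 bp of its start in CD11b-positive, 16.4%, 3.03%, 19.95% and 19.5% in CD11b-negative, and 19.9%, 13.8%, 14.8% and 15.4% in PBS. CD11b-positive libraries again lay below the PBS libraries, with a mean difference of -7.46 points (adjusted p = 0.0449, quasi-binomial model), which is under the 10 points of a call (-6.15 points without the number 2 libraries). Its tile chr9:8901001-8902000, with 43 CpGs, was called, with 13.3% ± 6.64 in CD11b-positive, 24.8% ± 14.2 in CD11b-negative and 29.0% ± 4.93 in PBS (-15.7 points, adjusted p = 0.00681).

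The starts of Pdgfd, Gria4 and Trpc6, which encode a platelet-derived growth factor, a glutamate receptor subunit and a cation channel, had intermediate methylation and did not pass as windows of 1000 bp on each side, although 1 tile each at Pdgfd and Gria4 was called (-14.8 and -15.9 points, adjusted p = 0.0228 and 0.0270, quasi-binomial model). Pdgfd had 19.9%, 4.11%, 22.5% and 23.3% in CD11b-positive, 20.9%, 3.02%, 33.1% and 30.8% in CD11b-negative, and 36.4%, 22.9%, 36.3% and 33.5% in PBS, so that CD11b-positive 4 overlapped the lowest PBS library (-14.8 points, adjusted p = 0.0761, quasi-binomial model). It was called without the number 2 libraries (-13.5 points, adjusted p = 0.00202) and with the replicate number as a block (-14.7 points, adjusted p = 0.0465). Gria4 had 37.5%, 7.46%, 19.98% and 19.9% in CD11b-positive, 35.9%, 6.91%, 34.3% and 38.9% in CD11b-negative, and 37.0%, 27.2%, 37.3% and 33.5% in PBS (-12.6 points, adjusted p = 0.0938, and -10.2 points without the number 2 libraries). Trpc6 had 15.7% ± 7.21 in CD11b-positive, 17.9% ± 13.2 in CD11b-negative and 25.7% ± 6.25 in PBS (-10.1 points, adjusted p = 0.198, and -8.85 points without the number 2 libraries).

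In all, 16 of the 33 protein-coding genes wholly inside the stretch had at least 3 common CpGs within 1000 bp of their start, and 1 of these windows was called in CD11b-positive against PBS, against 8.71% of 10884 windows genome-wide, 4.02% higher and 4.69% lower. That genome-wide share was 0.974%, 1.19% and 1.18% without PBS 1, 3 or 4, 2.78% without CD11b-positive 1, 3.24% by edgeR and 0.175% in a fit of all 12 libraries. The other 11 starts stayed under 5% in every library, from 0.232% to 4.67%, and their largest difference was 0.856 points, so no change of 10 points downwards could occur there. They were those of the apoptosis inhibitor genes Birc2 and Birc3, of Yap1, of Cfap300, Cep126 and Dync2h1, which serve cilia or centrosomes, of Dcun1d5, a gene of protein neddylation, and of Aasdhppt, Kbtbd3, Cwf19l2 and Tmem123. Aasdhppt and Kbtbd3 share their window's CpGs, as do Dcun1d5 and Dync2h1. At the Birc3 start the means were 0.528% ± 0.170 in CD11b-positive, 0.433% ± 0.119 in CD11b-negative and 0.428% ± 0.126 in PBS, and at the Yap1 start 2.92% ± 0.659, 3.34% ± 1.21 and 3.77% ± 0.779 (SD, n = 4 each).

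**Figure D5:**
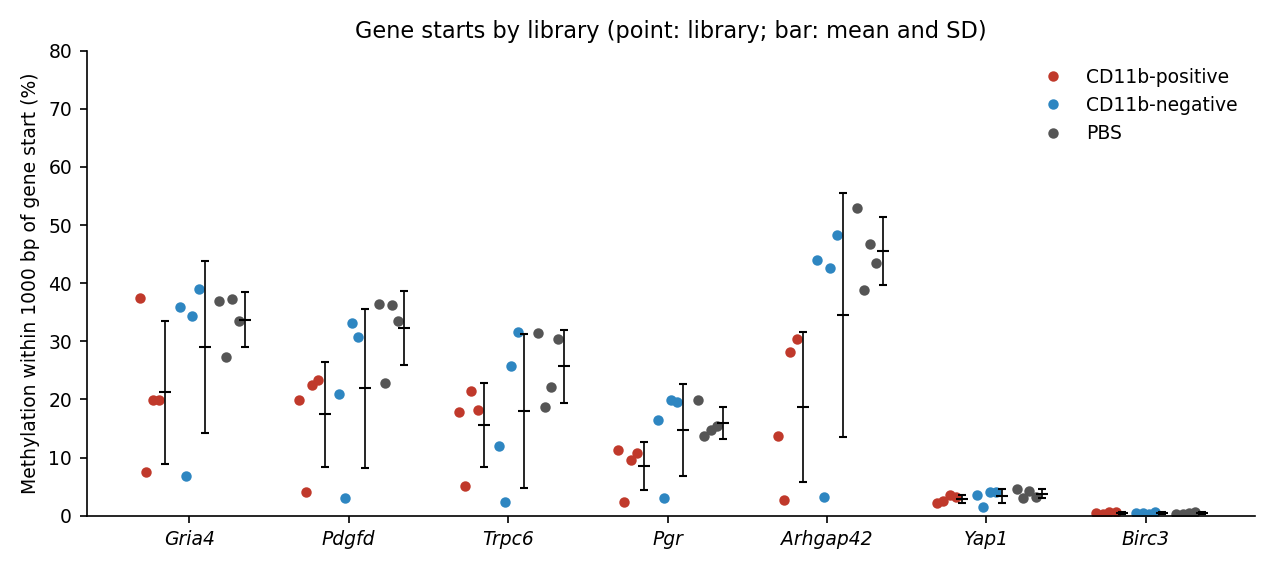
Methylation within 1000 bp of 7 gene starts by library, in percent; points are libraries and bars are means with SD. At Arhgap42 each CD11b-positive library, at 30.4% or less, lies below each PBS library, at 38.9% or more, while CD11b-negative 2 is near zero; Yap1 and Birc3 stay under 5%.

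Gene families differed in how far they could be measured. The assay left 14 of the 33 genes with no common CpG, among them all 3 caspase genes and 8 of the 10 metalloproteinase genes. Mmp20, the enamel metalloproteinase gene, had 2, and Mmp1b had 7, with 81.2% ± 4.01 in CD11b-positive, 70.3% ± 9.37 in CD11b-negative and 63.2% ± 4.77 in PBS (SD, n = 4 each). Inside Gucy1a2, which encodes a subunit of soluble guanylate cyclase, 50 common CpGs had 83.6% ± 3.51, 78.8% ± 5.95 and 73.7% ± 0.651 in these groups, and 2 of its 4 tiles were higher. Inside Dync2h1, the heavy chain of the dynein that returns cargo in cilia, 30 CpGs had 46.7% ± 2.16, 44.4% ± 3.21 and 41.5% ± 0.450. Pdgfd was level over its body, at 67.2% ± 1.22, 67.0% ± 2.29 and 67.0% ± 1.48, with 1 tile higher and 1 lower. Cntn5, a neural adhesion gene, crosses the 10 Mb limit, and its tile chr9:9852001-9853000 gained 13.4 points.

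CD11b-negative cells were compared with PBS to describe the treated cells without CD11b. No tile of the stretch was called, nor any of the 87020 tiles (0%) by the quasi-binomial model, and edgeR's quasi-likelihood test also called 0. In the quasi-binomial model 30 of the 147 tiles had an unadjusted p under 0.05, against 8632 of all 87020, a larger share in the stretch. CD11b-negative and PBS libraries did not overlap in 18.4% of the stretch's tiles, against 10.6% of all tiles. Among common CpGs these shares were 5.96% and 3.86%. Whether the stretch differs from the background in this was not tested. Of the CpGs, 0 of 1443 were called and 104 had an unadjusted p under 0.05, against 53371 of all 1052856. Of the 16 gene starts 0 were called, with 0 at an unadjusted p under 0.05, against 578 of all 10884 windows. The median tile difference was 3.02 points in the stretch and 2.53 over all tiles.

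CD11b-positive and CD11b-negative cells came from mice of the same treatment. Without regard to library numbers, 0 of 147 tiles were called (0% of all tiles, 0 by edgeR), and 0 of 16 gene starts. In the quasi-binomial model 15 of these tiles had an unadjusted p under 0.05, against 9460 of all 87020. So did 1 gene start, against 752 of all 10884 windows. Libraries with the same number deviated together between CD11b-positive and CD11b-negative, only weakly for number 1 (correlation 0.159). With the number as a block 12 tiles were called, 9 higher and 3 lower, against 13.3% of all tiles. In each of the 12 all 4 pairs moved the same way, an agreement that this fit favours in the tiles it calls. The pair numbered 2 differed by as little as -0.278 points, at chr9:9239001-9240000. The higher ones included the tile near Yap1, with 78.2% ± 10.4 in CD11b-positive and 59.7% ± 20.8 in CD11b-negative, where the pairs differed by 18.3, 2.69, 22.6 and 30.3 points (adjusted p = 0.0127 in the paired quasi-binomial model). In the pair numbered 2 both libraries were high, at 93.2% and 90.5%. The lower ones were the 2 tiles at the Arhgap42 start and the Pgr tile. The Arhgap42 start was the 1 gene window called with the block (adjusted p = 0.0204, against 3.79% of all windows called), with pair differences of -30.3, -0.501, -14.4 and -17.9 points. Without the number 2 libraries 20 tiles were called, against 20.3% of all tiles, and 1 gene window, against 5.26% of all windows.

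Single CpGs were tested in the same way. In CD11b-positive against PBS 271 of the 1443 common CpGs were called (18.8%), 200 higher and 71 lower, against 16.7% of all common CpGs, 13.3% higher and 3.48% lower. The lower ones numbered 2 in a fit of all 12 libraries, where 133 were higher, and 14, 21 and 27 without PBS 1, 3 or 4, where 167, 154 and 164 were higher. In these 4 fits 9.36%, 12.5%, 12.1% and 13.2% of the stretch's common CpGs were called. Over all common CpGs the shares were 7.31%, 11.4%, 11.6% and 12.2%. In the first block 3 of 112 were called. In CD11b-positive against CD11b-negative 0 of 1443 were called (0% of all), and 120 without the number 2 libraries, against 8.36% of all common CpGs. With all 8 libraries 115 of the 1443 had an unadjusted p under 0.05 in the quasi-binomial model, against 72308 of all 1052856.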

How the data were processed

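Per the labels' protocols, DNA was extracted with a Promega Maxwell kit and libraries were made with an Illumina RRBS kit. The submitters' processing notes name Trim Galore 0.6.4, cutadapt 2.7, Bismark, methylKit 1.20.0 and build mm10. How reads that match several places, such as repeat copies, were placed, and whether duplicate reads were removed, is not given in the sources used here. Per the file contents, the deposited data are counts of methylated and unmethylated reads per cytosine, not normalised. Reads carry no molecular identifiers, so intervals would cover counting error only, and at Arhgap42 CpGs with 13 calls a single value is coarse.

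The members, lists and tests were chosen with earlier results of these data known. Strands were summed, and CpGs with at least 10 calls in all 12 libraries were kept. Tiles of 1000 bp and windows of 1000 bp on each side of a gene start needed 3 such CpGs. The start used was the outermost one among the gene's RefSeq start sequences (GRCm38.p6). The annotated gene can begin farther out, as at Pgr (8898900, against 8899833 used here). Differences of library means were tested by exact permutation (two-sided, 70 assignments), with Benjamini-Hochberg adjustment over 3 comparisons. CpGs, tiles and windows of the autosomes and X were fitted with a quasi-binomial logistic model and F test, with the Pearson dispersion moderated as in limma (squeezeVar) in classes of average methylation split at 5, 20, 80 and 95% and kept at 1 or above, on the 8 libraries compared. The step was tested on simulated data. Alternatives were edgeR 4.0.16 (R 4.3.3), other coverage and size limits, all 12 libraries, a Y-gene term, a replicate block and leaving libraries out. All protein-coding genes inside are members, and the tiles named are the called ones without overlap between groups that changed most, up to 5 in each direction (3 losses met the rule).

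Same-numbered libraries of CD11b-positive and CD11b-negative deviated together from their group means over tiles (correlations 0.159, 0.926, 0.654 and 0.682), only weakly for number 1. The numbers were taken to pair these groups from these same data, since the labels do not say what a number marks. Calls made with the number as a block rest on that choice. Against PBS the correlations were 0.175, 0.730, 0.232 and -0.0990 for CD11b-positive and 0.439, 0.772, 0.342 and -0.131 for CD11b-negative. Numbers 1 to 3 thus also deviated together with PBS to some degree, and number 4 did not. The main comparisons with PBS were not paired.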

Additional observations from a re-analysis of the deposited data

Results flagged for a closer look

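Of 90 groups of 4 libraries examined for a single library far from the rest, 8 held one, where chance gives about 1 in 20 separate groups. These groups are not separate, since the Arhgap42 start window and its 2 flagged tiles share CpGs. The flagged tiles are also among those named for large changes, so that rate is only a rough guide. In 6 of the 8 the single library was CD11b-negative 2. That library was low at the gene starts of Arhgap42 (3.28%, others 42.5% to 48.3%) and Gria4 (6.91%, others 34.3% to 38.9%) and in the Arhgap42 tiles chr9:9239001-9240000 (2.99%, others 40.2% to 44.0%) and chr9:9238001-9239000 (3.52%, others 44.1% to 51.8%). It was high in the tiles near Mmp1b (75.9%, others 42.9% to 48.1%) and inside Arhgap42 at chr9:9063001-9064000 (75.6%, others 65.0% to 66.7%). Beside these values stand its Y-gene calls, 40.2 per 1000000 autosomal calls against 8.64 to 12.9 in the other CD11b-negative libraries, and their part in the result was not tested for this library. Methylation of the first block in CD11b-positive 4 was 85.4% (others 84.7% to 84.8%). The Cwf19l2 start in PBS 4 had 1.49% (others 0.767% to 0.849%).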

How the results depend on the processing

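The 3.20 and 2.14 points by which CD11b-positive and CD11b-negative exceeded PBS over the stretch kept their sign in each alternative. By exact permutation tests adjusted over 3 comparisons they missed the threshold with 1 library left out (3.01 to 3.35 points, adjusted p = 0.0857, and 1.77 to 2.33 points, adjusted p = 0.0571 to 0.0857). They also missed it without the number 2 libraries (2.91 and 1.67 points, adjusted p = 0.100) and with the replicate block as a sign-flip test (3.20 and 2.14 points, adjusted p = 0.125). Before adjustment the smallest possible p of these designs is 0.0571, 0.100 and 0.125, so none of them could pass. Weighted by depth without the first block, the differences missed it as well (5.82 points, adjusted p = 0.0857, and 1.73 points, adjusted p = 0.257).

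The difference between the stretch and its neighbour changed sign when weighted by depth (9.12, 7.15 and 1.98 points for CD11b-positive minus PBS, CD11b-negative minus PBS and CD11b-positive minus CD11b-negative, from -1.32, -0.101 and -1.22), a weighting in which the unequal calls of the highly methylated first block enter. Without that block the first 2 were 0.0844 and 0.976. CD11b-negative minus PBS also changed sign against the rest of chromosome 9 (0.0353), without the number 2 libraries (0.551) and with single libraries left out (-0.603 to 0.859, above zero without PBS 1 at 0.247 and without CD11b-negative 2 at 0.859). The cause was not tested.

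The relative calls of PBS, 0.612 of the treated mean, were 0.580 to 0.656 with 1 library left out, 1.00 without the first 100 kb of assembled sequence and 0.999 without the first 40 kb. The first bin went with its width, at 0.326 for 1 Mb, 0.245 for 0.25 Mb and 0.123 for 5 kb.

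For CD11b-positive against PBS the 52 called tiles were 11 at 20 points, 23 of 94 with at least 5 CpGs (24.5%, against 27.9% of all such tiles), 1 with the Y share as a term and 42 to 55 with 1 library left out. The 42 were 28.6%, against 31.3% of all tiles, and the 55 were 37.4%, against 36.1%. Of the 23 called with at least 5 CpGs, 17 were higher and 6 lower, against 46 and 6 of the 52. The 271 called CpGs were 135 in a fit of all 12 libraries (9.36%, against 7.31% of all common CpGs). With 1 library left out they were 175 to 268, lowest without PBS 3 (12.1%, against 11.6%) and highest without CD11b-positive 4 (18.6%, against 16.4%). The 1 called gene start, Arhgap42, was lost (0 called) in the fit of all 12 libraries, by edgeR, with the Y share as a term and without PBS 1, 3 or 4 (adjusted p = 0.0913, 0.0805 and 0.0749), and 2 were called without the number 2 libraries (12.5%, against 9.71% of all windows). Without CD11b-positive 1 its adjusted p was 0.0699 and Gria4 had 0.0443. With the replicate block Arhgap42 had 0.0575 and Pdgfd 0.0465, and 49 tiles were called (33.3%, against 35.2% of all tiles). With the Y share the differences of Arhgap42 (3.49), Gria4 (5.70), Pdgfd (9.28), Trpc6 (10.4), Pgr (2.73) and the tiles chr9:9238001-9239000 (6.78) and chr9:8901001-8902000 (3.78) turned positive, with none called. The replicate block, edgeR and the Y share were not run for single CpGs. The Y share moves with the groups, so that fit cannot tell them apart.

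For CD11b-positive against CD11b-negative, the counts of 0 became 26 tiles and 99 CpGs without CD11b-negative 2, or 17.7% and 6.86% against 20.4% and 7.32% genome-wide (0 to 26 and 0 to 99 with any 1 library left out), 20 tiles, 120 CpGs and 1 gene start without the number 2 libraries, and 12 tiles and 1 gene start with the replicate block. For CD11b-negative against PBS each alternative gave 0 calls in the stretch.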
